A study of Mus musculus with 10 samples.

Results

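Elk1 signal at day 8 of M9 reprogramming was compared with Elk1 signal at day 4 over all 1577 loci of a mouse chromatin immunoprecipitation table. The comparison used 2 of the 10 libraries, 1 for each day. The question was which loci with early Elk1 signal kept it and which lost it. A locus was called early when its day 4 signal was 100 or more, which held for 283 of the 1577 loci. Of these, 91 also reached 100 in at least 1 of the other 8 libraries and are called listed elsewhere, while 192 did not. A locus was called kept when its day 8 signal was more than 50% of the day 4 signal, lost when it was 25% or less, and reduced in between, all after adding 1 to each signal. The other libraries were the Elk1 ones of day 0, ciNSLCs and pri-NPC and the Gli2 ones of all 5 stages. Of the early loci 168 were lost (59.4%) and 42 kept (14.8%), beside 27.1% lost and 56.0% kept among all loci, of which 44% were at least 2-fold lower at day 8. Early loci were chosen on the day 4 signal, which favours a fall, so nothing is read from this contrast. Kept among all loci also takes in the 355 loci at least 2-fold higher at day 8. Of the 4 early loci at immediate-early genes, those at Egr1, Fos and Egr3 were kept and that at Junb was reduced. Egr3 and Junb lay close to the limit for kept, on either side of it. In a block over and beside Sfi1, whose loci reached 100 in 4 to 10 of the 10 libraries, 16 of 18 loci were kept.

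The cells are named tdMEFs in the labels and were grown in a medium with fetal bovine serum made for MEFs, mouse embryonic fibroblasts, before reprogramming. M9 is a neural medium with N2 and B27 supplements that contains CHIR99021, LDN193189, A83-01, Hh-Ag1.5, retinoic acid, SMER28, RG108, Parnate and bFGF, used at low oxygen. Cells of days 4 and 8 had both been in this medium, and the labels give no genotype, no sorting step and no separate cultures, so each value describes a mixed cell population of 1 sample. The names ciNSLCs and pri-NPC are those of the labels, which do not spell them out. Every Elk1 library used the same Epitomics antibody and every Gli2 library the same Abcam antibody. With 1 library on each side no difference has a replicate check and none was tested. A binding table holds no expression, so the cell type was not checked against markers. In a bulk sample, fewer bound cells and less Elk1 per cell cannot be told apart.

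Elk1 is an ETS family transcription factor that is phosphorylated by MAP kinases such as ERK. At serum response elements it joins serum response factor, which binds the CArG box, and both act on immediate-early genes, whose transcription starts soon after a growth factor is added. ETS factors recognise a GGAA core, and Elk1 prefers the longer form CCGGAAGT.

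3 of the 283 early loci (1.06%) overlapped a promoter window of the RefSeq table used here, which runs from 250 bases before to 50 bases after a gene's start, against 47 of all 1577 loci (2.98%). The windows of Map3k14 and Sox2 are shown because early loci described below lay on them. The table used here held no window of Egr1 or Egr3, so these are in neither count. Both sequences are from RefSeq on build GRCm38.p6, read 5′ to 3′ in the direction of the gene, with CCGGAA in capitals. The Map3k14 window is chr11:103267352-103267651 on the minus strand, of which the locus covered 207 bases. The Sox2 window is chr3:34649745-34650044 on the plus strand, and the locus covered all 300 bases.
Map3k14: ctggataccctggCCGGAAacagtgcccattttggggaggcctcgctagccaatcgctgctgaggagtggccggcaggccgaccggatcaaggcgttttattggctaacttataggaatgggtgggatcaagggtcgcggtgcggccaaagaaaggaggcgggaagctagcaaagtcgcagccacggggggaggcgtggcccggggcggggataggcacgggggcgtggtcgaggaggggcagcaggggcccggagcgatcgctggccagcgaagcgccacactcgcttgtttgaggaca
Sox2: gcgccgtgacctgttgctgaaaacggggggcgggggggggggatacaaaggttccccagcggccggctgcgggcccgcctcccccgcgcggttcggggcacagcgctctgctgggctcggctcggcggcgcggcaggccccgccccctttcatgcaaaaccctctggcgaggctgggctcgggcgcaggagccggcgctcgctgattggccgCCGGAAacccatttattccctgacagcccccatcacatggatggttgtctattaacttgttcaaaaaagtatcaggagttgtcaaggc
CCGGAA occurred once in each, at position -237 from the start site in Map3k14 and at -38 in Sox2. Searched on both strands, CCGGAA was present in 14.9% of 32851 promoter windows, so a single match is common. The longer CCGGAAGT, which contains it, was in 3.89% of windows and the CArG box in 1.63%, and both were missing from the printed windows. The third overlap was with Gm33862, in the Sfi1 block, and its window held none of these motifs. The promoter windows of Fos and Junb held none of these motifs, but sequence more than 250 bases before a start site was not searched. The early loci of both genes lay downstream of them, with centres 12.235 and 2.093 kb past the start sites. The windows therefore did not overlap these loci. No genome sequence was used here, so the bases under those loci are not shown.

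The gene lists were chosen with earlier results of these data known. The share of all 21900 protein-coding genes with a locus is not given here, so list counts, here and below, are a description. The immediate-early and serum response list held 44 annotated genes. A locus lay within 50 kb of 6 of them, and early loci lay at 4, namely Egr1, Egr3, Fos and Junb. Of these 4 loci 3 were kept, 1 was reduced and none was lost. Early loci were chosen on the day 4 signal itself, so a fall from it is favoured at every early locus, and the class shares are a description. The median log2(signal + 1) difference, day 8 minus day 4, was -0.68 over these 4 and -2.34 over all 283 early loci. The 283 were weaker at day 4, with a median signal of 116.3 against 184.1 for the 4. Of the 4 loci 3 were listed elsewhere, and the 91 early loci listed elsewhere had a median difference of -1.28. Those of the 91 with 150 to 300 at day 4 had -1.13. All signals below are on the deposited scale, and 5 signals in a row are those of day 0, day 4, day 8, ciNSLCs and pri-NPC, always in this order. Coordinates are those of the table on build mm10, whose count from 0 or 1 is not stated, and exons, introns and UTRs were not assigned.

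Egr1 encodes a zinc finger transcription factor that is a classical Elk1 target. At its locus (chr18:34860505-34861165, 42 bp from the gene) the Elk1 signals were 24, 164.7, 137.1, 80.8 and 148. The Gli2 signals there were 23.9, 30.1, 36.8, 10.6 and 23.5. The day 8 Elk1 value of 137.1 thus lay nearer to those of day 4 and pri-NPC than to that of day 0, and Gli2 was low throughout. The day 8 to day 4 ratio was 0.832 and the log2 difference -0.26. Its 95% counting interval, which takes the signals as 17 and 27 counted units from the spacing of low signals, leaves the background aside and covers counting error only, was 0.438 to 1.63.

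Fos, the partner of Jun proteins in the AP-1 factor, had its locus 8591 bp downstream of the gene (chr12:85485865-85486385). Its Elk1 signals were 37.8, 222.8, 167.6, 135.5 and 249.6, so the day 0 value alone was below 100. Gli2 signal was 35.8, 7.5, 4.3, 9 and 1.3. The day 8 to day 4 Elk1 ratio was 0.752, and its counting interval of 0.429 to 1.34 held 1.

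Junb, another AP-1 subunit, had a locus 64 bp past the gene's end (chr8:84976465-84976845). Its Elk1 signals were 13.7, 203.5, 100.7, 97.7 and 129.4. Day 4 was the highest of the 5, and day 8 and ciNSLCs were close together. Gli2 signals were 63.3, 7.1, 8.5, 9 and 7.2. The interval of the ratio of 0.495 (0.257 to 0.968) left out 1, and the log2 difference of -1.01 put Junb just past the limit for kept.

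Egr3, a zinc finger factor related to Egr1, had a locus 2252 bp away (chr14:70074785-70075065) with Elk1 signals of 12.2, 118, 60.9, 18.7 and 27.9. It reached 100 at day 4 alone, and ciNSLCs and pri-NPC were nearer to day 0 than to day 4. The day 8 ratio was 0.516 (0.215 to 1.28), just inside the limit for kept with a log2 difference of -0.94. Gli2 signals were 35.8, 7.5, 4.3, 5.3 and 0. The other members of the list had low Elk1 signal at both days, 29.1 and 18.7 at Fosb and 19.4 and 5.1 at Spry4, an inhibitor of growth factor signalling. Scaling both Elk1 libraries to the same median adds 0.54 to log2 differences of high signals, which is more than the fall at Egr1 and Fos and less than that at Egr3 and Junb.

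**Figure D1:**
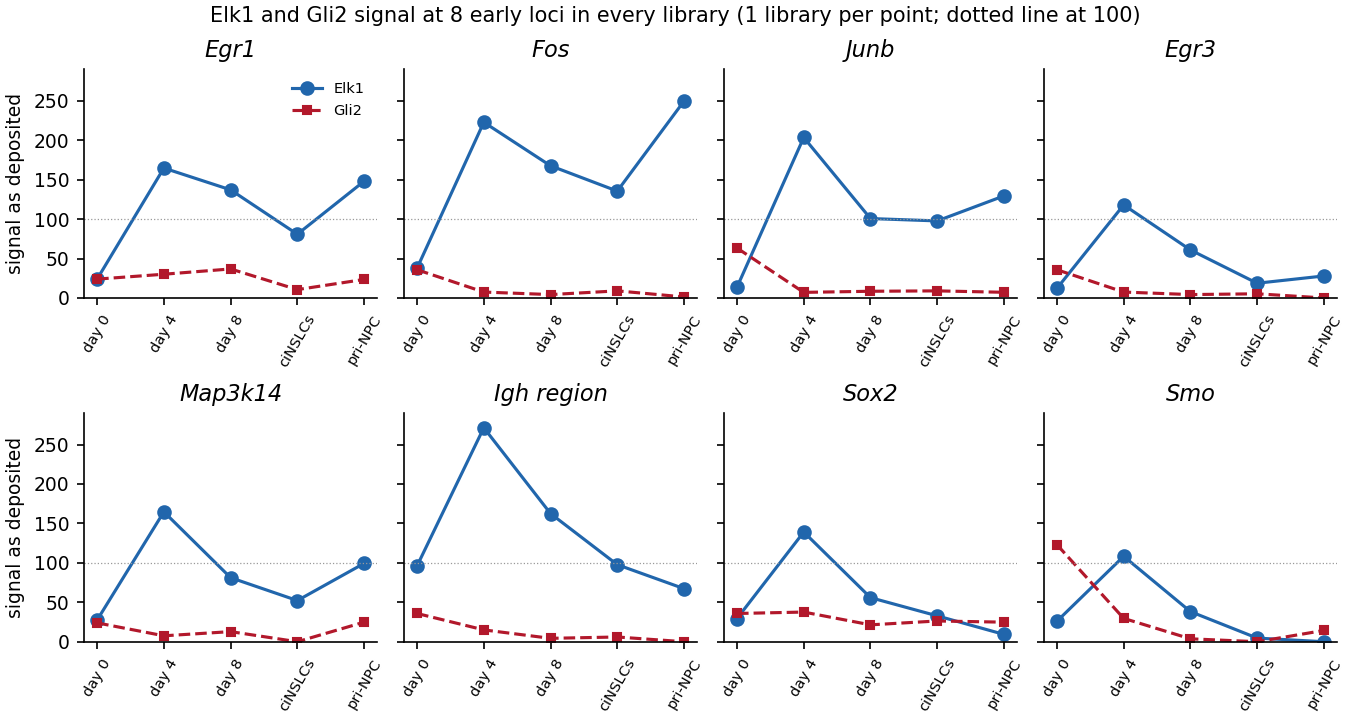
Elk1 (circles) and Gli2 (squares) signal as deposited, y axis, in the 5 stages on the x axis at 8 early loci, 1 library per point; lines only join points of an antibody. Elk1 stood at 137.1, 167.6, 100.7 and 60.9 at day 8 at Egr1, Fos, Junb and Egr3, and at 55.9 and 38.2 at Sox2 and Smo. At day 4 the signals of these loci, in the same order, were 164.7, 222.8, 203.5, 118, 139.1 and 108.3.

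Neural and Hedgehog genes were next. Sox2 encodes a transcription factor that maintains neural progenitors. At the locus over its promoter and gene (chr3:34649325-34650265) the Elk1 signals were 29.4, 139.1, 55.9, 32.8 and 9.3. Day 4 stood alone above 100, and day 8 lay between it and the other 3. The ratio was 0.402 (0.169 to 0.977), and Gli2 signals were 35.8, 37.6, 21.4, 26.3 and 24.8. This locus was reduced. Sox2 was the only early gene of 37 annotated neural progenitor genes, of which 6 had a locus.

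Smo, the transducer that relays Hedgehog signals and the target of the agonist Hh-Ag1.5 in the medium, overlapped a locus at chr6:29748365-29748585. Elk1 signals there were 26, 108.3, 38.2, 4.6 and 0. Gli2 signals were 123, 29.6, 3.7, 0 and 14.3. Elk1 was highest at day 4 and Gli2 at day 0, and both were lower at day 8 than at day 4. The Elk1 ratio of 0.353 (0.133 to 1.04) rested on 11 counted units at day 4 and 8 at day 8. Smo was the only 1 of 26 annotated Hedgehog pathway genes with a locus.

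No other list had an early locus. Of 42 annotated genes of the MAP kinase pathway and ternary complex factors 3 had a locus, of 23 actin cytoskeleton targets of serum response factor 1, of 32 fibroblast genes 3, of 29 cell cycle genes 2 and of 18 neuron genes 1. None of 75 ribosomal protein genes and none of 12 glia genes had a locus. 

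Strong early Elk1 signal with low Gli2 signal was found at 10 loci, those with 150 or more at day 4 and Gli2 below 100 in all 5 libraries, a group chosen after its values were seen. Of these, 3 were kept, 5 reduced and 2 lost. Egr1, Fos and Junb were among them. The highest at day 4 lay in the immunoglobulin heavy chain region Igh (chr12:115372125-115372505), where Elk1 signals were 96.2, 271.3, 162.5, 97.7 and 67.3. It was kept, with a ratio of 0.599 (0.349 to 1.03), and its Gli2 signals were 35.8, 15, 4.3, 6 and 0.

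Map3k14 encodes the NF-κB-inducing kinase, which starts the non-canonical NF-κB pathway. Its promoter locus (chr11:103267445-103267805, the sequence above) had Elk1 signals of 27.5, 164.7, 81.2, 52.2 and 99.3. Day 4 was highest and day 0 lowest. Gli2 signals were 23.9, 7.5, 12.8, 0 and 24.8. The ratio was 0.493 (0.233 to 1.04), next to the limit between kept and reduced. The 2 lost loci were in Nkain3, with 159.1 at day 4 and 37.5 at day 8, and in Eda, the gene of the TNF family ligand ectodysplasin, with 155 and 15.2. The rest were reduced, with 165.3 and 49.1 near A530032D15Rik and 160.3 and 72.5 and 186.4 and 51.8 at a pair of loci in Gm38510.

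Of all 1577 loci, 694 (44%) had at least 2-fold less Elk1 signal at day 8 than at day 4 and 355 (22.5%) at least 2-fold more. The counting interval left out 1 at 258 of the lower and 7 of the higher loci. Scaled to the same median, the split was 551 lower and 446 higher, or 55.3% of the changed loci lower against 66.2% as deposited. Over the 1381 loci listed elsewhere 511 were lower (37%) and 352 higher (25.5%), with 89 and 5 beyond counting error. There the split turned to 385 lower and 442 higher with the same median, so the direction over these loci depended on the scaling. The median signal was 14.8 at day 4 and 10.2 at day 8 over all loci, and 11.4 and 10.2 over loci listed elsewhere.

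**Figure D2:**
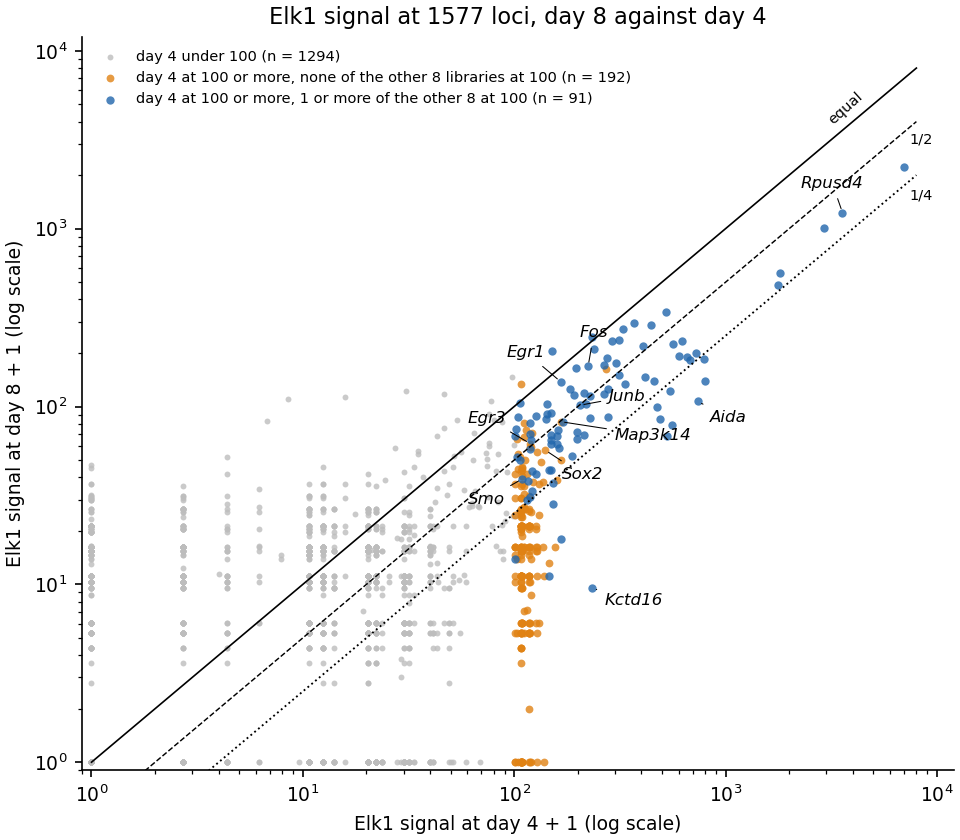
Elk1 signal plus 1 at day 8 (y axis) against day 4 (x axis), both log scales, 1 point per locus, with lines for equal signal and for 50% and 25% of it (drawn as 1/2 and 1/4). Blue loci, listed elsewhere, follow the lines from 100 upwards, while orange loci, not listed elsewhere, form a column just above 100 at day 4 that reaches down to 0 at day 8.

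Among the 283 early loci 42 were kept (14.8%), 73 reduced (25.8%) and 168 lost (59.4%). By the same limits 883 of all 1577 loci were kept (56.0%), 267 reduced (16.9%) and 427 lost (27.1%). Early loci were chosen on the day 4 signal, so nothing is read from the contrast. The counting interval left out 1 at all 168 lost loci, but the limits for early and lost bring this about. Even 10 units at day 4 against 5 at day 8 gave an upper bound of 0.842, so nothing is read from it. The interval of 37 of the 42 kept loci held 1. No early locus was at least 2-fold higher at day 8. The number kept was 84 with libraries scaled to the same median and 12 without the loci that lie in clusters. The median signal of early loci was 116.3 at day 4 and 22.9 at day 8, and 47 still had 100 or more.

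The classes are given next by listing, as a description. A locus not listed elsewhere is in the table through the pair itself, nearly always through a high day 4 signal, so a fall is favoured there more than at loci listed elsewhere. Of the 91 early loci listed elsewhere 33 were kept (36.3%), 44 reduced and 14 lost (15.4%), with medians of 203.5 at day 4 and 98.1 at day 8. Of the 192 not listed elsewhere 9 were kept (4.69%), 29 reduced and 154 lost (80.2%), with medians of 108.3 and 15.2. Between day 4 signals of 100 and 110, where both kinds were similarly weak at day 4, 5 of 8 loci listed elsewhere were kept and 1 lost, against 3 and 92 of 109 not listed elsewhere. From 110 to 150 these numbers were 9 kept and 1 lost of 22, against 5 and 60 of 78. Below the limit, the 7 loci with 90 to 100 at day 4 had day 8 signals of 15.2 to 146.1 with a median of 24.2. Just above it the median day 8 signal was 59.0 for the loci listed elsewhere and 14.4 for the others.

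Counting precision differed between the days, and read depth is unknown. Low signals fell on a grid of whole multiples of one step less whole multiples of another. The former, taken as the worth of 1 counted unit, was 9.69 at day 4 and 5.08 at day 8, and the latter, taken as a background unit, was 7.97 and 5.91. Dividing by the former and leaving the background aside, 100 took 10.3 units at day 4 and 19.7 at day 8. The 192 loci not listed elsewhere had a median of 11 such units at day 4, and 165 of them had 12 or fewer. The most common day 4 signal among them was 106.6, at 56 loci. At day 8 they had a median of 3 units. Of these loci 190 reached 100 with Elk1 at day 4 and in no other library.

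The single loci of this kind, 164 that lay in no cluster, comprised 2 kept, 16 reduced and 146 lost. Their median Elk1 signals by stage were 13.9, 108.3, 14.4, 11.3 and 13.9, so day 4, which listed them, alone was high. At day 8, 16 of them (9.8%) had a signal of 30 or more. Loci that reached 100 only with Elk1 in pri-NPC, 677 in number, had a median day 8 signal of 9.3 and 29 at 30 or more (4.28%). The 357 loci that did so only with Gli2 at day 0 had 10.2 and 19 (5.32%). The day 8 median of the early single loci lay nearer to those of loci listed through other libraries than to the 98.1 of early loci listed elsewhere. The sets listed through pri-NPC or Gli2 alone hold only loci under 100 with Elk1 at days 4 and 8. Low day 8 medians are favoured there, so nothing is read from this nearness. Examples taken by rule as the largest falls near a gene were in Pde4d, a cyclic AMP phosphodiesterase, with 137.4 at day 4, near Cwh43 with 127.7, in Frmd4a with 116.3 and near Zfat with 108.3, and all 4 had 0 at day 8. Zfat was tied with loci in Cntnap2, C2cd3 and Ccdc186 and was taken by its place in the table. The day 0 signals of the 4 were 24, 13.7, 13.7 and 13.7.

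**Figure D3:**
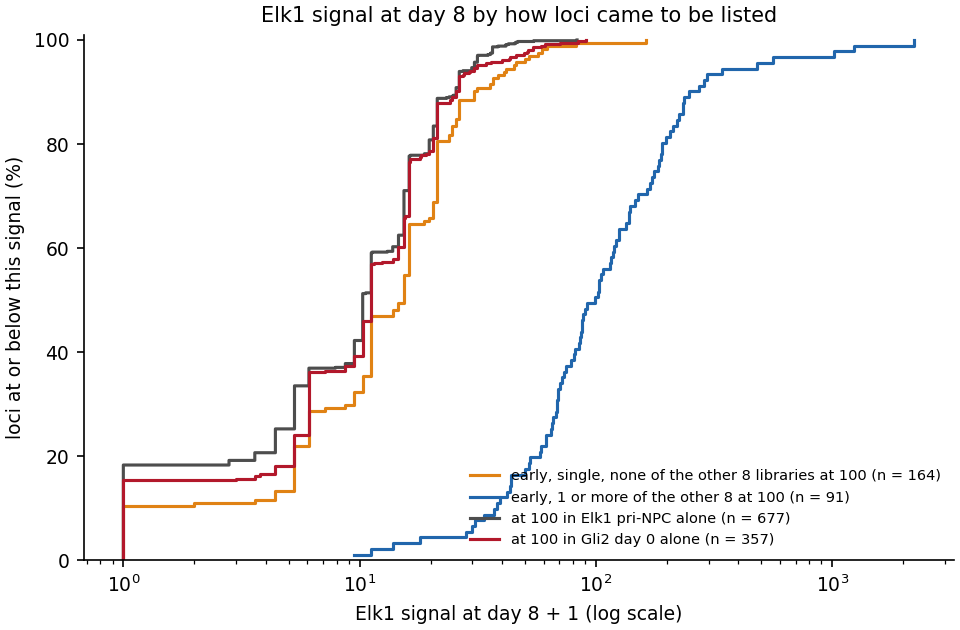
Cumulative share of loci (y axis, %) at or below a given Elk1 signal plus 1 at day 8 (x axis, log scale) in 4 sets of loci. The curve of 164 single early loci not listed elsewhere (median 14.4) runs beside those of loci listed through Elk1 pri-NPC alone (9.3) and Gli2 day 0 alone (10.2), while the 91 early loci listed elsewhere (98.1) lie far to the right. These 91 were also stronger at day 4, with a median of 203.5 against 108.3 for the 164. The sets listed through pri-NPC or Gli2 alone hold only loci under 100 with Elk1 at days 4 and 8.

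Many early loci lay in clusters of at least 3 with gaps of up to 50 kb, and 79 loci in 9 clusters comprised 30 kept, 36 reduced and 13 lost. Of the 204 single early loci 12 were kept, 37 reduced and 155 lost. The cluster with most kept loci lay at chr11:3126945-3200085, over and beside Sfi1, the gene of a centrosomal protein that binds centrin. Of its 18 loci 15 overlapped Sfi1, and the other 3 lay beside it and overlapped Pisd-ps1. Of all 18 16 were kept, 2 reduced and none lost. These loci reached 100 in 4 to 10 of the 10 libraries. All 18 did so with Elk1 at day 0, and 17 did so with Gli2 at day 0 and 17 at day 4. High signal there was thus particular neither to Elk1 nor to the early stage. The median Elk1 signals of days 0, 4 and 8 were 178.85, 250.8 and 207.25, and the median log2 difference was -0.44 for Elk1 and -0.51 for Gli2. Of the 6 highest differences of early loci listed elsewhere and near a gene, 4 were here, with 149.5 at day 4 and 203.9 at day 8, 232.2 and 246.3, 236.9 and 210.6, and 195.2 and 163.3. The others were Egr1 and a locus 48327 bp from Tcp10c, with 105.5 and 104.2.

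Another cluster of 18 loci, at chr9:2999865-3038365 with no protein-coding gene within 50 kb, had another profile. It held 2 kept, 12 reduced and 4 lost loci. The median Elk1 signals of days 0, 4 and 8 were 15.45, 273.1 and 84.2, with a median difference of -1.77, and Gli2 fell with it (median -2.18). Both clusters were strong with Elk1 at day 4, but with Elk1 at day 0 the Sfi1 loci were high and the chromosome 9 loci low. The chromosome 9 loci were not low in all other libraries. Their median Elk1 signal in pri-NPC was 383.8. Gli2 signals at day 0 were 635.8, 196.6 and 432.5 at the first loci by position. On chromosome 1 at chr1:88213285-88305365, over Ugt1a10, Mroh2a and Trpm8, 16 loci comprised 4 kept, 8 reduced and 4 lost. At chr1:85254865-85330105, over Gm38510 and Gm7592, 10 loci comprised 3, 4 and 3. Among early loci not listed elsewhere the highest differences were at these places, in Gm38510 with 107.2 at day 4 and 132.5 at day 8 and with 112.3 and 73.0, and in Mroh2a with 110 and 79.6 and with 102 and 64.4. The 4 loci over Sp110 and Sp140, genes of nuclear body proteins, comprised 1 kept and 3 reduced.

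**Figure D4:**
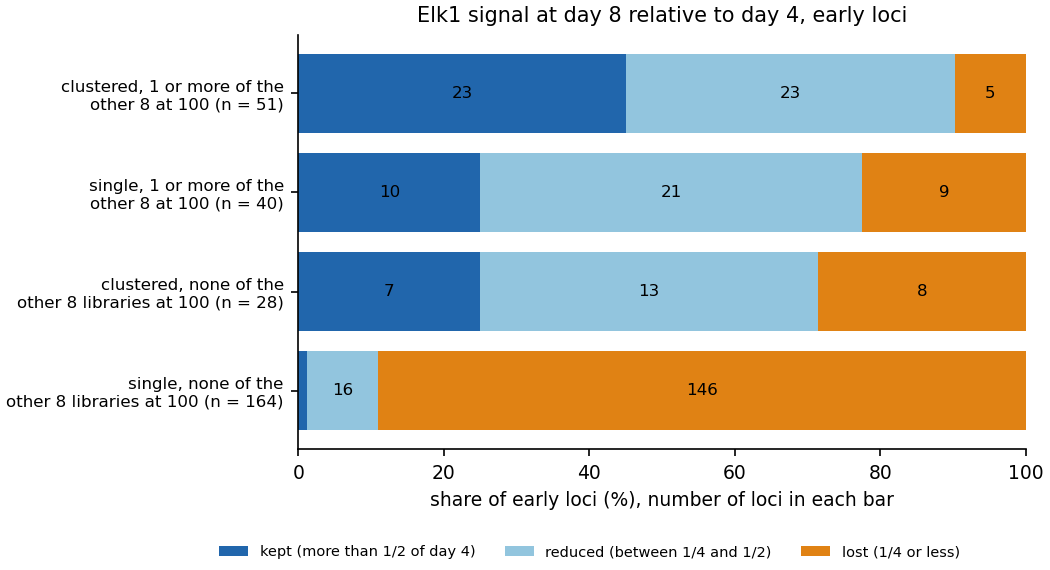
Share of early loci (x axis, %) kept, reduced or lost at day 8, by whether the locus lay in a cluster and whether 1 or more of the other 8 libraries reached 100; numbers in the bars are loci. Single loci not listed elsewhere were mostly lost (146 of 164), and 23 of the 51 clustered loci listed elsewhere were kept.

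The classes were then set beside the signal at other stages. Of 28 early loci with Elk1 at 100 or more at day 0, 20 were kept, 6 reduced and 2 lost, but 18 of these lay in the Sfi1 block, and of the other 10 loci 4 were kept, 4 reduced and 2 lost. Of the 63 loci listed elsewhere with less than 100 at day 0, 13 were kept, 38 reduced and 12 lost. With Elk1 at 100 or more in ciNSLCs, 10 of 19 early loci were kept and 1 lost, but outside the Sfi1 block 1 of 10, at Fos, was kept. With 100 or more in pri-NPC 14 of 54 were kept and 9 lost, and outside the block 5 of 44 were kept. Outside the block the 73 early loci listed elsewhere comprised 17 kept, 42 reduced and 14 lost, with a median difference of -1.49. The median width was 660 bp for kept, 400 bp for reduced and 260 bp for lost loci, but among loci listed elsewhere it was 800, 540 and 620 bp, where lost loci were wider than reduced ones.

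Some early loci listed elsewhere lost their signal. The locus in Kctd16, which encodes an auxiliary subunit of GABA-B receptors, had the lowest difference of those near a gene (chr18:40308045-40308425). Its Elk1 signals were 22.5, 233.4, 8.5, 15.9 and 209.8. Gli2 signals were 278.5, 73.1, 5.3, 2.3 and 110.7. Both antibodies were low at day 8 and in ciNSLCs and higher in pri-NPC, and Elk1 was low at day 0 too. The Elk1 ratio was 0.0364 (0.0050 to 0.176). The Aida locus (chr1:183298985-183299745) had Elk1 signals of 327.9, 738.7, 105.8, 4.6 and 665, and Gli2 signals of 1180.7, 474.6, 21.8, 0 and 261.5. There both antibodies were lowest in ciNSLCs, and day 8 was the next lowest stage.

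The locus nearest Ly6c2, which encodes a surface antigen of monocytes, lay 20956 bp from the gene and had 556 at day 4 and 77.5 at day 8, while Gli2 had 162.2 and 29.1. In Zc3h7a, which encodes a zinc finger protein, Elk1 had 151.1 and 27.2 and Gli2 221.5 and 68.6. In Tmem267 Elk1 had 164.7 and 17, and Gli2 had 44.2 and 27.7. The last locus by this rule, 5889 bp from Zfp982, was reduced rather than lost, with 113.4 and 29. At each of these 6 loci Gli2 was lower at day 8 than at day 4 as well.

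The 3 highest day 4 signals were reduced and not lost. At chr2:98666085-98667465 Elk1 signal was 6966.8 at day 4 and 2220.5 at day 8, at a locus 29108 bp from Rpusd4 on chromosome 9 it was 3574 and 1231.3, and at chr2:98662085-98663105 it was 2928.8 and 1012.9. Gli2 signal there was 3549.5 and 745.5, 1526.8 and 357.1, and 1524.5 and 424.4, so both antibodies were lower at day 8. In the same order, Elk1 signals were 55.7, 6.9 and 6.9 at day 0 and 7140, 3571.7 and 3470.9 in pri-NPC. Gli2 signals at day 0 were 6670.2, 3382.2 and 3228. High signal at these loci was thus particular neither to Elk1 nor to day 4. At the ribosomal RNA gene Rn18s-rs5 (chr17:39842845-39848965) Elk1 had 622.7 and 233.5 and Gli2 662.7 and 364.3. Such repeated sequences have many near-identical copies, so the place of their reads is uncertain. Whether the 3 loci above, or those of the Sfi1 and chromosome 9 clusters, lie in repeated sequence was not tested.

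Gli2 was then set beside Elk1 for the same days. Over the 91 early loci listed elsewhere the median log2 difference was -1.28 for Elk1 and -1.24 for Gli2, and Gli2 was at least 2-fold lower at 52 and higher at 2. The rank correlation of both differences across these 91 loci was 0.57, against 0.24 over all 1577 loci, -0.07 over all 283 early loci and 0.06 over the 192 not listed elsewhere. These are descriptions, since loci of a cluster share a region and each antibody's difference comes from the same pair of days. Across all 1577 loci 462 had Gli2 at least 2-fold lower and 354 at least 2-fold higher, with a median difference of -0.21 against -0.77 for Elk1. Egr1 and Junb were lower with Elk1 and slightly higher with Gli2, whose signals there were 7.1 to 36.8 at these days. The 84 early loci where Gli2 reached 100 in some stage comprised 31 kept, 39 reduced and 14 lost, and the 199 others 11, 34 and 154. Of these 199, 192 were the loci not listed elsewhere, which held all 154 lost loci. The split by Gli2 thus mostly repeats the split by listing, and nothing is read from it. The 7 listed elsewhere comprised 2 kept, 5 reduced and 0 lost.

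**Figure D5:**
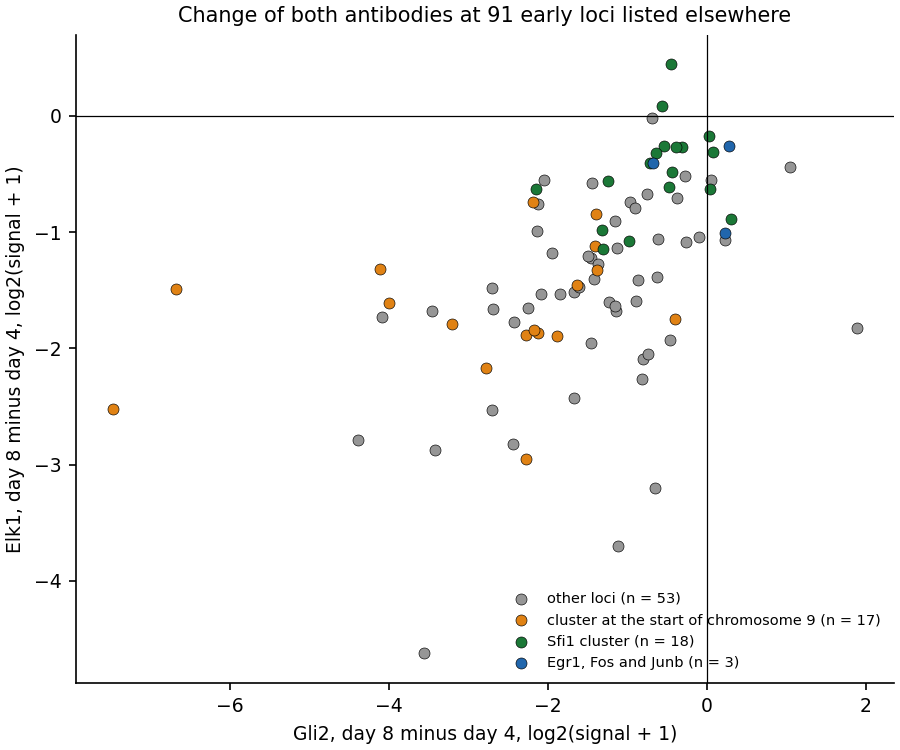
Day 8 minus day 4 difference of log2(signal + 1) for Elk1 (y axis) against Gli2 (x axis) at 91 early loci listed elsewhere, 1 point per locus. The 18 Sfi1 loci have medians of -0.44 for Elk1 and -0.51 for Gli2, with ranges of -1.15 to 0.45 and -2.15 to 0.31. The chromosome 9 cluster is low on both axes. Egr1, Fos and Junb are at 0.28, -0.68 and 0.23 on the Gli2 axis.

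Of the 53 loci at 100 or more with Elk1 at day 8, 6 had less at day 4. These 6 were chosen on both signals, so a rise is favoured. By the inferred units 100 took 19.7 units at day 8 and 10.3 at day 4, so this count is not like that of early loci. The largest difference was at chr17:13654745-13655045, 801 bp from Gm41530, with 7.5 at day 4 and 109.4 at day 8, where Gli2 also went from 19.8 to 105. The others lay near Mroh2a (14.8 and 111.9), near Ugt1a10 (29.7 and 121.4), in Gm38510 (45.6 and 116), 63839 bp from Fam171a1 (97 and 146.1) and in Slc30a4, a zinc transporter gene (76.4 and 106.9). Of these, the Mroh2a, Ugt1a10 and Gm38510 loci lay within the chromosome 1 clusters described above. The day 0 Elk1 signal was 92.8 near Mroh2a, 90.5 near Ugt1a10 and 55.0 near Gm41530, so day 4 was the lowest of the 3 days at these loci. Slc30a4, with 5.7 at day 0, had 78.4 in ciNSLCs and 174.8 in pri-NPC. The counting interval of the day 8 to day 4 ratio held 1 in Gm38510 (0.897 to 8.12), near Fam171a1 (0.720 to 3.50) and in Slc30a4 (0.586 to 3.59). It left out 1 near Gm41530, Mroh2a and Ugt1a10, where day 4 rested on 1, 2 and 3 counted units.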

How the data were processed

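Chromatin immunoprecipitation was done with Elk1 and Gli2 antibodies at 5 stages, 1 library each. The submitters' processing notes name Bowtie2, SAMtools, FastQC, CASAVA 1.8.4 and build mm10. A peak caller, a background and a scaling were not given in the sources used here. In the deposited table the authors give a signal per locus and library, each locus reaching at least 100.1 in some library, and total depth is unknown. Signals were compared as log2(signal + 1), which understates differences of low signals, and at least 2-fold counted as changed. No test was possible.

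A unit step and a background step were fitted to the spacing of signals below 60, with a tolerance of 0.06, which held 97.4% of low signals at day 4 and 91.9% at day 8. Signals divided by the unit step gave counted units, which the authors do not state. The 95% interval of a ratio is the exact conditional binomial one. It covers counting error only and ignores the background and the listing at 100. The fit of the steps was tested on simulated libraries. The 2-fold calls were run on simulated loci without background or listing at 100, so the effect of that listing was not tested.

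Genes and promoter windows came from RefSeq GRCm38.p6, the same build as mm10, by distance to 21900 protein-coding genes up to 50 kb. Members and gene lists were chosen with earlier results of these data known. Named were list genes at 100 with Elk1 at day 4 or 8, the 6 highest and 6 lowest differences of early loci listed elsewhere and the 4 of each kind of the others (all near a gene), the 5 largest gains among loci at 100 or more at day 8 and under 100 at day 4, and the 3 highest day 4 signals. The Igh, Map3k14, Nkain3, Eda and A530032D15Rik loci, the early pair in Gm38510, Rn18s-rs5 and Slc30a4 were added after their values were seen. Python 3.11.15, numpy 2.4.6, pandas 2.3.3, scipy 1.17.1 and matplotlib 3.10.9 were used.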

Additional observations from a re-analysis of the deposited data

How the results depend on the processing

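Of 82 values under 16 alternatives, 57 stayed within 1.5 times the reported count or within 0.1 of the reported median and 25 moved further. The split over loci listed elsewhere, 511 lower and 352 higher, turned to 385 and 442 with the same median over all loci. With the counting interval required, loci lower and higher were 258 and 7 over all loci, and 89 and 5 over those listed elsewhere. Leaving out loci below the 25th percentile gave 175 and 172 higher loci. Counting as listed elsewhere at 150, or through Elk1 or Gli2 libraries alone, gave 139, 294 and 264 lower and 54, 209 and 144 higher loci.

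The 42 kept loci became 84 with the same median, 20 with early set at 150, 25 without loci at 100 in 6 or more libraries, 10 without mitochondrial loci and loci with a neighbour within 10 kb, and 12 without clusters. The 168 lost loci became 14 with early set at 150. The median difference of -1.28 of early loci listed elsewhere became -0.75 with the same median over all loci, -1.12 with the same median over loci listed elsewhere, -1.40 with either limit at 150, -1.38 without loci in 6 or more libraries, and -1.48 without either such neighbours or clusters.

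Added after seeing the data were the same median over loci listed elsewhere, leaving out clusters, and the counting interval for kept and lost loci. The cause of these moves was not tested. No paired analysis was possible because each day had 1 library. Read depth is unknown, and by the inferred units a signal of 100 at day 4 is 10.3 units.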
